A study of Callithrix jacchus with 54 samples.

Results

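The 10 genes described here, PIWIL2, MOV10L1, PLD6, TDRKH, ASZ1, GTSF1, MAEL, TDRD12, TDRD9 and TDRD5, encode proteins of the piRNA pathway. They were taken by symbol from a table of 14812 genes of the common marmoset, all 10 are in it, and 8 of them passed a filter on low values that 11197 genes passed. Their gene IDs in the table are 100398875 (PIWIL2), 100397701 (MOV10L1), 100395827 (PLD6), 100391663 (TDRKH), 100411662 (ASZ1), 100387645 (GTSF1), 100410059 (MAEL), 100407656 (TDRD12), 100399710 (TDRD9) and 100386142 (TDRD5). In germ cells, PIWI-interacting RNAs (piRNAs) are small RNAs that are bound by PIWI proteins and silence transposable elements. Long precursor transcripts are unwound and cut at the outer membrane of the mitochondria, the resulting pieces are loaded into PIWI proteins and trimmed, and a feed-forward cycle of cleavage, which takes place in the perinuclear granules called nuage, amplifies the piRNAs that target active transposons. The pathway is known as a feature of germ cells rather than of pluripotent or somatic cells.

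RNA was measured in 54 libraries from 27 conditions of 2 replicates each, all from 1 female marmoset embryonic stem cell line (cjESC, CMES40) that carried a BLIMP1-tdTomato and a NANOS3-eGFP reporter. The cjESCs in DK20FA medium and the cells cultured in BLSE (BMP4, LIF, SCF and EGF), SOX17 + BLSE and SOX17 + LSE (without BMP4) also carried rtTA and inducible SOX17, BLIMP1 and TFAP2C transgenes. SOX17 was activated with dexamethasone, which per the study's methods was added alone for this purpose, so SOX17 and dexamethasone cannot be told apart where SOX17 + BLSE is compared with BLSE. All of these induction cultures, and those named next, also held a ROCK inhibitor, and so did the pre-treatment. The cjESCs in PESFA medium, the cells pre-treated with IM12 and activin A, and the cells cultured in BLSE + IWR1 (an inhibitor of WNT signaling) or BLSE + IWR1 + BMS (BMS493, an inverse agonist of retinoic acid receptors) carried no transgene, so medium and transgenes cannot be told apart between both sets of cjESCs. Per the study, the BLSE + IWR1 and BLSE + IWR1 + BMS cultures were started from pre-treated cells. It describes no pre-treatment for the BLSE and SOX17 cultures, so pre-treatment and IWR1 cannot be told apart against these. The induction cultures were sampled at 12, 24, 48 and 96 h. Marmoset primordial germ cell-like cells (cjPGCLCs) at day 6 came from BLSE + IWR1, and the same cells were then aggregated with somatic cells of mouse embryonic female gonads into xenogeneic reconstituted ovaries (xrOvaries) and collected at days 20, 40 and 70. Per the study's methods, the aggregates were first held with retinoic acid and a ROCK inhibitor, and then in media with serum. Aggregation, these media and time therefore cannot be told apart between day 6 and the xrOvaries. cjESCs and pre-treated cells were sorted for TRA-1-60, the cells of 12 to 48 h and of BLSE at 96 h were not sorted by the reporter, and the other 96 h cells, the day 6 cells and the xrOvary cells were sorted for BLIMP1-tdTomato.

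The values are TPM, a measure of transcript abundance that is scaled for transcript length and library size and can be compared between genes. Because TPM keep no read totals, the depth of the libraries is unknown. Differences were tested on log2(TPM + 1), on which changes of weakly expressed genes appear smaller than they are, with limma over all libraries, and a gene was called at an adjusted p under 0.01. In bulk RNA, fewer cells that express a gene and less of its RNA per cell cannot be told apart. The summed TPM of the PGC markers was between 3070 and 3320 at day 6 and between 1510 and 1550 at day 70, and that of the pluripotent markers between 7420 and 7550 at day 6 and between 5030 and 5130 at day 70. KIT was at 5.16 and 3.99 TPM at day 6 and at 2.71 TPM or less in the xrOvaries. The part of these shifts in the results was not tested. In these 8 libraries SOX17 lay between 256.34 and 708.18 TPM, and POU5F1 between 4194.38 and 6597.82 TPM. Of 7 markers of gonadal somatic cells in the table, NR5A1 was listed at 0 in all 8 libraries, and the 7 summed to between 0.14 and 0.53 TPM at day 6 and to between 0.24 and 8.01 TPM in the xrOvaries. The gonadal cells were of mouse and the reads were aligned to the marmoset genome. These sums therefore do not measure how many mouse cells were carried over. The highest sum was that of replicate 2 of day 20, in which EMX2 stood at 4.39 TPM. Its part in the results of day 20 was not tested, and without this library the same number of members was called between day 20 and day 6.

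From day 6 to day 70, 7 of the 8 members tested rose and PLD6 fell. Against day 6, MOV10L1, MAEL and TDRKH were called higher at day 20, and TDRD12, ASZ1, GTSF1 and PIWIL2 were first called at day 40, when the mean of PIWIL2 was 43.6% of its day 70 mean. Whether the timing differed between members was not tested. PIWIL2 and MAEL are genes that the study singled out in these same libraries, so their direction is not independent of that choice. From the same libraries, the study also reported a gene ontology term for piRNA metabolism among the genes enriched in the xrOvary cells. The direction of the list as a whole was therefore not an independent observation.

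**Figure D1:**
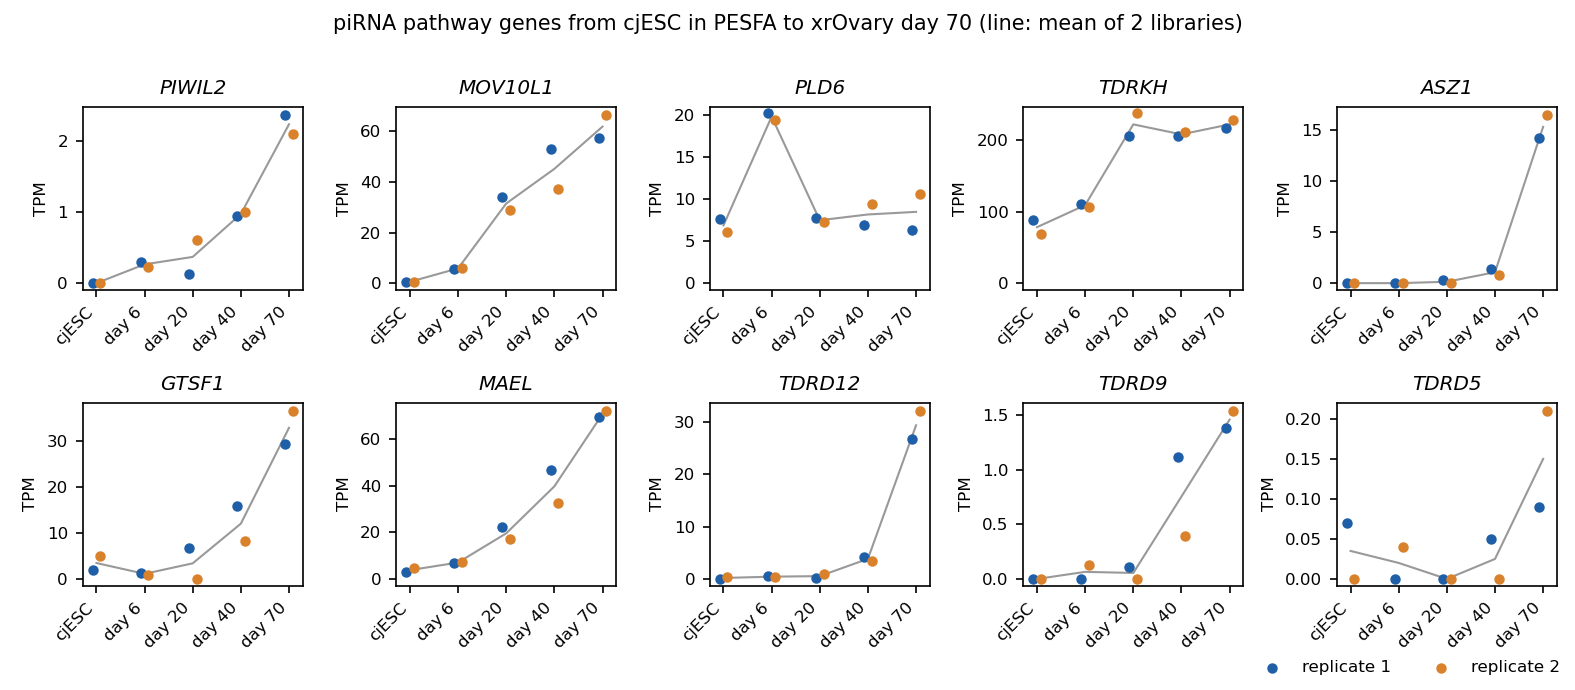
TPM of the 10 members in each library of cjESC in PESFA, cjPGCLC day 6 and xrOvary days 20, 40 and 70, with a line through the means and a separate vertical scale per gene. MOV10L1 and MAEL climb at each step, ASZ1 and TDRD12 are near 0 up to day 20 and highest at day 70, PLD6 peaks at day 6, and the scale of TDRD5 ends near 0.2 TPM.

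MOV10L1, the RNA helicase that binds piRNA precursors and feeds them into processing, stood at 5.65 and 6.03 TPM in the day 6 libraries. It reached 34.13 and 28.77 TPM at day 20, 53.16 and 37.17 TPM at day 40, and 57.41 and 66.47 TPM at day 70. The libraries of these 4 times did not overlap, and the mean at day 70 was 10.6 times that at day 6. Already at day 20 the mean was 50.8% of its day 70 level. The difference in log2(TPM + 1) from day 6 was 2.24 ± 0.26 (SE, adjusted p = 2.09e-08) at day 20 and 3.2 ± 0.26 at day 70 (adjusted p = 1.4e-12).

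MAEL, a nuage protein needed for transposon silencing, rose along a similar course from 7.06 and 7.07 TPM at day 6. The libraries held 22.15 and 17.12 TPM at day 20, 47.00 and 32.52 TPM at day 40, and 69.43 and 72.37 TPM at day 70. Each time lay above the one before with no overlap, and the day 20 mean was 27.7% of that of day 70. The difference from day 6 was 1.34 ± 0.27 (SE) at day 20, with an adjusted p of 0.000165, and 3.16 ± 0.27 at day 70, with an adjusted p of 3e-12.

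TDRKH, a Tudor and KH domain protein of the mitochondrial membrane that holds PIWI proteins during trimming, was the member with the highest TPM in every library. It stood at 110.81 and 106.47 TPM at day 6 and at 205.81 and 238.25 TPM at day 20. It then stayed within a narrow range, from 205.95 to 227.78 TPM at days 40 and 70. The difference between day 20 and day 6 was 1.02 ± 0.15 (SE, adjusted p = 1.38e-06), whereas day 40 differed from day 20 by -0.09, with a 95% interval from -0.39 to 0.22, and day 70 from day 40 by 0.09 (interval from -0.21 to 0.40). The mean at day 20 was 99.9% of that at day 70.

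TDRD12, a Tudor domain protein with a helicase-like domain that acts in secondary piRNA production, was at 0.49 and 0.38 TPM at day 6 and at 0.11 and 0.97 TPM at day 20. It stood at 4.19 and 3.48 TPM at day 40 and at 26.61 and 32.05 TPM at day 70. Thus the day 6 and day 20 libraries overlapped, and both later times lay apart from them and from each other. TDRD12 rose by 1.71 ± 0.25 (SE) from day 20 to day 40 with an adjusted p of 9.28e-06, and by 2.65 ± 0.25 from day 40 to day 70 with an adjusted p of 8.47e-10.

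ASZ1, an ankyrin repeat protein of the mitochondrial surface where precursors are processed, was listed at 0 in both day 6 libraries. It was listed at 0.27 and 0 TPM at day 20, at 1.38 and 0.77 TPM at day 40, and at 14.21 and 16.45 TPM at day 70. The day 40 mean was 7.01% of the day 70 mean, the lowest share among the members that were called between these days. The step from day 40 to day 70 was 2.99 ± 0.24 (SE, adjusted p = 2.17e-11), and no fold is given against day 6, where the gene was at 0.

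GTSF1, a zinc finger cofactor of PIWI proteins, gave the least even pairs. Its libraries held 1.33 and 0.90 TPM at day 6, 6.78 and 0 TPM at day 20, 15.75 and 8.18 TPM at day 40, and 29.21 and 36.48 TPM at day 70. The day 20 pair enclosed the day 6 pair, and neither step after day 20 passed the test alone (adjusted p = 0.025 and 0.246), although day 70 lay above day 6 by 4.0 ± 0.63 (SE, adjusted p = 2.32e-06). The SE of 0.63 was the largest among the members.

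PIWIL2 was the only PIWI protein among the genes analysed here and remained at low levels throughout. Its libraries held 0.30 and 0.23 TPM at day 6, 0.13 and 0.61 TPM at day 20, 0.94 and 1.01 TPM at day 40, and 2.37 and 2.1 TPM at day 70. The day 20 pair enclosed that of day 6, and the pairs of days 40 and 70 stood above both without overlap. The difference from day 6 was 1.35 ± 0.17 (SE, adjusted p = 1.93e-08) at day 70. PIWIL2 passed the filter only through the 2 libraries of day 70, as ASZ1 did, and TDRD12 only through the 4 libraries of days 40 and 70. A gene that enters a test through its highest group had to differ there. The tests of these genes and the counts below are therefore descriptions of the members and not support for their rise.

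PLD6, the phospholipase domain protein of the mitochondrial surface known as the nuclease that starts piRNA processing, went the other way. It stood at 20.27 and 19.36 TPM at day 6, the highest mean of all 27 conditions, and at 7.73 and 7.21 TPM at day 20. At day 40 it was at 6.96 and 9.37 TPM and at day 70 at 6.33 and 10.62 TPM. The libraries of days 20, 40 and 70 overlapped with each other and lay below those of day 6. PLD6 fell by 1.3 ± 0.24 (SE) on the log2 scale from day 6 to day 20, with an adjusted p of 4.68e-05, and its mean at day 20 was 37.7% of that at day 6. The difference between day 70 and day 6, -1.17, lost its call without replicate 1 of day 70 (-0.84, adjusted p = 0.0181).

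TDRD9, a helicase and Tudor domain protein of nuage, did not pass the filter. It was at or below 0.13 TPM in the libraries of days 6 and 20, at 1.12 and 0.39 TPM at day 40 and at 1.38 and 1.54 TPM at day 70. In a fit without the filter its difference between day 70 and day 6 was 1.21 ± 0.12 (SE, adjusted p = 2.44e-09). TDRD5, a nuage protein with LOTUS domains, was listed at 0 in 45 of the 54 libraries and at no more than 0.24 TPM in any. At day 70 it was at 0.09 and 0.21 TPM.

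Counted over the list, 3 members were called higher at day 20 than at day 6 (MOV10L1, MAEL and TDRKH), where 6.56% of the genes tested were, and PLD6 was the 1 member called lower, where 13.8% were. At day 40 against day 6, 7 members were higher (background 6.91%) and 1 was lower (background 19%). At day 70 against day 6 the counts were again 7 higher (background 7.46%) and 1 lower (background 23.8%). The 3 comparisons share the day 6 libraries and are not independent of each other. The median difference of the 8 members was 0.29 at day 20, 1.39 at day 40 and 3.18 at day 70, beside -0.08, -0.15 and -0.20 over all genes tested. Median-ratio scaling, which sets the last of these to 0, moved the share of higher among all calls at day 70 from 23.8% to 44.8%, and the 7 members stayed higher and PLD6 lower under it. Without replicate 1 of day 40, 4 members were called higher at day 40 than at day 6, the calls of ASZ1, GTSF1 and PIWIL2 being lost. That of GTSF1 was also lost without replicate 2 of day 6 (adjusted p = 0.0193), and that of PIWIL2 was lost without any 1 of the 4 libraries (adjusted p from 0.0114 to 0.0248).

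Between neighbouring times, TDRD12 was the 1 member called higher at day 40 than at day 20 (background 1.15%), and 3 members, ASZ1, TDRD12 and PIWIL2, were called higher at day 70 than at day 40 (background 0.768%). ASZ1 and PIWIL2 passed the filter only through day 70, and TDRD12 only through days 40 and 70, so these counts are descriptions. PIWIL2 lost its call between days 40 and 70 without any 1 of the 4 libraries (adjusted p from 0.0292 to 0.0918). With only the compared libraries in the fit, none of the calls of day 20 against day 6 (adjusted p from 0.0235 to 0.0482) or of these last 2 steps remained, while the 7 higher members of day 70 against day 6 did.

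**Figure D2:**
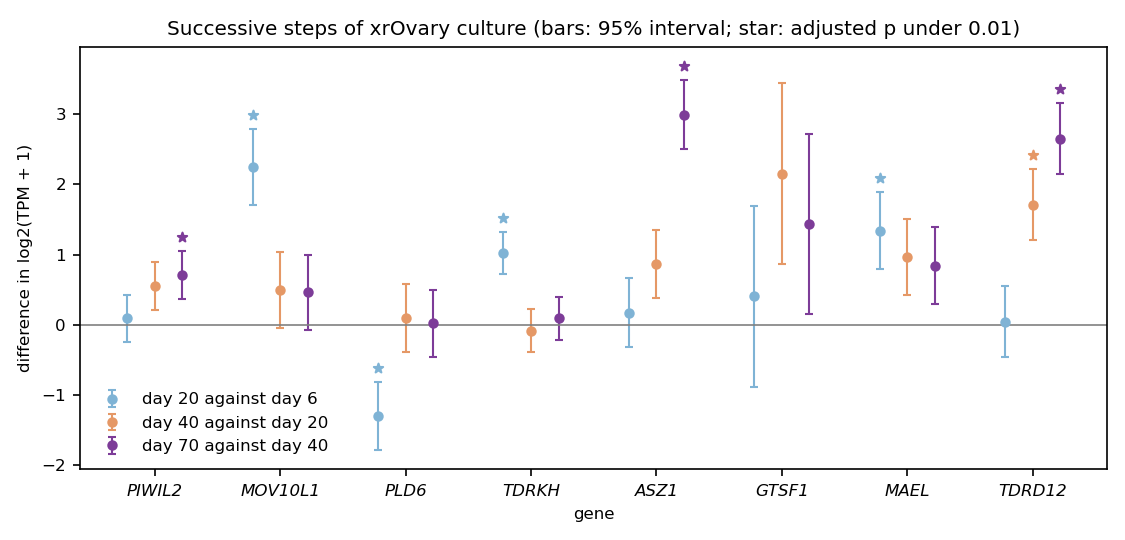
Differences in log2(TPM + 1) between successive times for the 8 members tested, with 95% intervals from limma and a star where the adjusted p was under 0.01. MOV10L1, TDRKH and MAEL carry a star at the first step, PLD6 a star below 0 at the first step, and ASZ1, TDRD12 and PIWIL2 a star at the last.

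Before aggregation the members fell into 3 kinds by level. TDRKH, MAEL and PLD6 were above 0 in all 48 libraries of cjESCs, induced cells and day 6 cells, with medians of 77.1, 6.46 and 7.39 TPM. MOV10L1, with a median of 1.72 TPM and also above 0 in all 48, was present at lower levels. GTSF1, with a median of 4.39 TPM and listed at 0 in 3 libraries, was at more variable levels. ASZ1, TDRD12, PIWIL2, TDRD9 and TDRD5 did not pass 1.61 TPM in any of these libraries, and PIWIL2 was listed at 0 in 30 of them. TDRKH was thus measured at 66.27 TPM or more in all 6 libraries of cjESCs and pre-treated cjESCs.

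**Figure D3:**
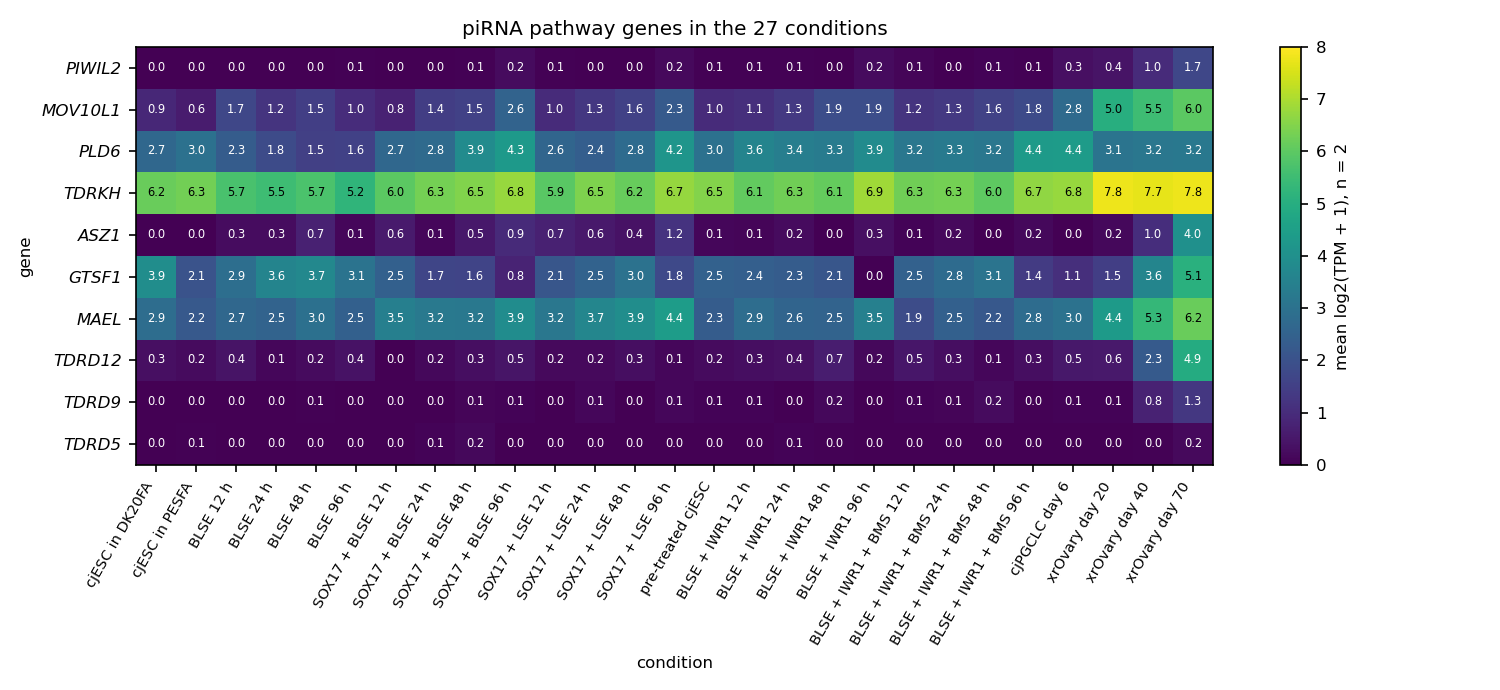
Mean log2(TPM + 1) of the 2 libraries for each of the 10 members in the 27 conditions, from 0 (dark) to 8 (bright). The 3 xrOvary columns at the right are the brightest for MOV10L1 and TDRKH, for MAEL those of days 40 and 70 are, GTSF1 is also bright in cjESC in DK20FA and in BLSE at 24 and 48 h, and PLD6 is brightest in the sorted 96 h cells and at day 6.

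In the order of the 27 conditions by mean TPM, day 70 came first for 9 of the 10 members, PLD6 being the exception, but the libraries of days 20, 40 and 70 overlapped for TDRKH, and for TDRD5 the first place, at 0.09 and 0.21 TPM, overlapped with SOX17 + BLSE at 48 h, at 0.24 and 0 TPM. For MOV10L1 the order ran from day 70 over day 40 and day 20 to day 6, followed by SOX17 + BLSE and SOX17 + LSE at 96 h, and day 6 and SOX17 + BLSE overlapped. For MAEL the third place was taken by SOX17 + LSE at 96 h, at 20.53 and 20.48 TPM, whose libraries lay between those of day 20. For GTSF1 the second place was that of cjESC in DK20FA, at 15.89 and 12.62 TPM, which overlapped with its neighbours, BLSE at 48 h and xrOvary day 40. For PLD6 day 6 was followed by BLSE + IWR1 + BMS at 96 h, at 19.56 and 19.55 TPM, within the spread of the day 6 pair.

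The step from cjESC in PESFA to cjPGCLC day 6 brackets the pre-treatment and the whole induction. Between them, 3 members were called higher, MOV10L1, TDRKH and PLD6, where 24.9% of all genes tested were. MOV10L1 was at 0.53 and 0.54 TPM in these cjESCs, and the difference was 2.16 ± 0.26 (SE, adjusted p = 1.15e-08). PLD6 was at 7.66 and 6.05 TPM, with a difference of 1.41 ± 0.24. TDRKH was at 87.62 and 68.70 TPM, and its difference of 0.48 ± 0.15 lost its call without either replicate of day 6 (adjusted p = 0.0451 and 0.0237), without replicate 2 of these cjESCs (0.31, adjusted p = 0.163) and under median-ratio scaling (0.26, adjusted p = 0.0932). The summed TPM of 6 stroma markers was between 1270 and 2270 in these cjESCs and between 56.2 and 76.0 at day 6, and its part in these differences was not tested. From 96 h in BLSE + IWR1 to day 6 no member was called, with 2 at an unadjusted p under 0.05 in limma, where 2.75% of all genes were called in either direction.

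At 96 h, in cells sorted for BLIMP1-tdTomato, PLD6 and MOV10L1 were called higher than in the cjESCs of their line in all 4 cultures. This held whether SOX17 was induced or WNT signaling was inhibited. TDRKH and MAEL were called higher in 3 of the 4. In BLSE + IWR1 + BMS they were not called, although TDRKH (93.19 and 109.71 TPM) and MAEL (7.10 and 5.29 TPM) lay above cjESC in PESFA without overlap. TDRKH in the pre-treated cjESCs, at 102.86 and 79.62 TPM, overlapped with that culture. In SOX17 + BLSE, 5 members were called higher than in cjESC in DK20FA (background 25.6%), ASZ1, MOV10L1, MAEL, TDRKH and PLD6, and 1 was lower, GTSF1 (background 17.6%). SOX17 + LSE gave the same 5 higher (background 21.3%) and GTSF1 lower (background 12.5%). Against cjESC in PESFA, 4 members were higher in BLSE + IWR1 (background 25.5%), MOV10L1, MAEL, TDRKH and PLD6, and 1 was lower, GTSF1 (background 17.9%). In BLSE + IWR1 + BMS 2 members were higher, MOV10L1 and PLD6 (background 22.4%). The comparisons of 1 set of cjESCs share those libraries. Fewer members were called higher without 1 library: 3 in SOX17 + BLSE without its replicate 1 or without replicate 1 of the cjESCs, 3 in SOX17 + LSE without its replicate 1, and 1 in BLSE + IWR1 without its replicate 2 or 2 without replicate 2 of the cjESCs. Under median-ratio scaling, which moved the share of higher among all calls in these 4 comparisons from between 54.1% and 63.0% to between 41.8% and 47.1%, the count in BLSE + IWR1 was 2, and TDRKH lost its call there, in SOX17 + BLSE and in SOX17 + LSE (adjusted p = 0.0517, 0.0105 and 0.0239). PLD6 also lost its call in BLSE + IWR1 under this scaling (0.66, adjusted p = 0.0115 in limma). The stroma markers summed to between 82.5 and 115 TPM in BLSE + IWR1 and to between 84.5 and 108 TPM in BLSE + IWR1 + BMS at 96 h, beside the 1270 to 2270 TPM of cjESC in PESFA. They summed to between 48.9 and 59.5 TPM in SOX17 + BLSE and to between 133 and 224 TPM in SOX17 + LSE, beside 78.6 to 159 TPM in cjESC in DK20FA. Their part in the calls at 96 h was not tested.

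Among the sorted 96 h cells, PLD6 was at 19.34 and 17.99 TPM in SOX17 + BLSE and at 12.83 and 14.38 TPM in BLSE + IWR1. In cjESC in DK20FA it was at 5.97 and 4.82 TPM, and the difference in SOX17 + BLSE was 1.63 ± 0.24 (SE, adjusted p = 4.09e-07). All 8 libraries of sorted 96 h cells lay above the 6 of cjESCs and pre-treated cjESCs. ASZ1 was at 0.58 and 1.32 TPM in SOX17 + BLSE and at 1.61 and 0.92 TPM in SOX17 + LSE, beside 0 in the cjESCs. These conditions had the highest means of ASZ1 before aggregation, 0.95 and 1.27 TPM, beside 15.3 TPM at day 70.

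GTSF1 was called lower than in the cjESCs in 3 of the 4 sorted 96 h cultures. It was at 0 and 2.05 TPM in SOX17 + BLSE and at 1.18 and 4.19 TPM in SOX17 + LSE at 96 h, and listed at 0 in both libraries of BLSE + IWR1. All of these lay below the 15.89 and 12.62 TPM of cjESC in DK20FA, and those of BLSE + IWR1 below the 1.85 and 5.06 TPM of cjESC in PESFA. In BLSE + IWR1 + BMS at 96 h it was at 2.01 and 1.32 TPM, and its difference from cjESC in PESFA, -0.65, was not called (adjusted p = 0.408). GTSF1 fell by 3.12 ± 0.63 (SE) on the log2 scale in SOX17 + BLSE with an adjusted p of 8.03e-05. The calls of GTSF1 in SOX17 + LSE (adjusted p = 0.00502) and BLSE + IWR1 (adjusted p = 0.00617) were lost without the filter on low values (adjusted p = 0.0145 and 0.0166), and every call of GTSF1 at 96 h was lost without at least 1 of the libraries compared, in SOX17 + BLSE without its replicate 1 (adjusted p = 0.0116).

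The unsorted cells in BLSE alone at 96 h differed from the sorted cells. Against cjESC in DK20FA, 2 members were lower, TDRKH and PLD6 (background 17.1%). PLD6 was at 2.16 and 1.73 TPM and TDRKH at 44.82 and 29.30 TPM, with differences of -1.12 ± 0.24 and -0.95 ± 0.15 (SE, adjusted p = 0.000211 and 2.48e-06). In SOX17 + BLSE compared with BLSE at 96 h, the same 5 members were higher (background 29.3%) and GTSF1 was lower (background 16.1%), with the largest difference for PLD6, 2.74 ± 0.24. The call of GTSF1 was lost without replicate 1 of SOX17 + BLSE or either replicate of BLSE, and that of ASZ1 without replicate 2 of SOX17 + BLSE or replicate 1 of BLSE. Because 1 side of this comparison was sorted and the other was not, SOX17, dexamethasone and the sort cannot be told apart in it. The summed TPM of the stroma markers was between 1230 and 1930 in BLSE at 96 h, above that of SOX17 + BLSE, and its part in these differences was not tested.

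At 48 h, when no cells were sorted by the reporter, PLD6 already stood apart. It was at 15.38 and 11.66 TPM in SOX17 + BLSE, at 1.83 and 1.82 TPM in BLSE and at 6.53 and 5.39 TPM in SOX17 + LSE. The 3 pairs did not overlap. SOX17 + BLSE lay above BLSE by 2.35 ± 0.24 (SE, adjusted p = 1.05e-09), and 2 members, PLD6 and TDRKH, were called between them, where 16.7% of all genes were called in either direction. SOX17 + LSE lay below SOX17 + BLSE by 1.05 ± 0.24 (adjusted p = 0.00161), and PLD6 was the 1 member called between these cultures, which differ in BMP4 (background 8.01%). This call was lost without replicate 2 of SOX17 + LSE (adjusted p = 0.0401) or replicate 1 of SOX17 + BLSE (adjusted p = 0.061). At 96 h no member was called between SOX17 + LSE and SOX17 + BLSE, also with none at an unadjusted p under 0.05 in limma, where 7.11% of all genes were called. For PLD6 the pairs at 96 h were 18.63 and 15.33 TPM in SOX17 + LSE and 19.34 and 17.99 TPM in SOX17 + BLSE, which overlapped.

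Against the cjESCs of their line, 2 members were called in SOX17 + BLSE at 48 h, PLD6 higher and GTSF1 lower (background 26.3%), and 1 in BLSE, PLD6 lower (background 19.8%). In SOX17 + LSE it was 1 member, MAEL, which was higher (background 13.5%) at 14.30 and 14.27 TPM beside 4.85 and 8.01 TPM in the cjESCs. MOV10L1 was the 1 member called in BLSE + IWR1 (background 27.4%) and in BLSE + IWR1 + BMS (background 26.6%). Its values were 2.83 and 2.66 TPM in the first and 1.87 and 2.15 TPM in the second, all above the cjESCs in PESFA. Both cultures followed the pre-treatment, after which MOV10L1 was at 0.73 and 1.23 TPM. Their change from the pre-treated cells was not tested. The calls of MOV10L1 in BLSE + IWR1 + BMS (without any 1 library), of MAEL in SOX17 + LSE and of GTSF1 in SOX17 + BLSE (each without 3 of the 4 libraries) did not hold when libraries were left out in turn.

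**Figure D4:**
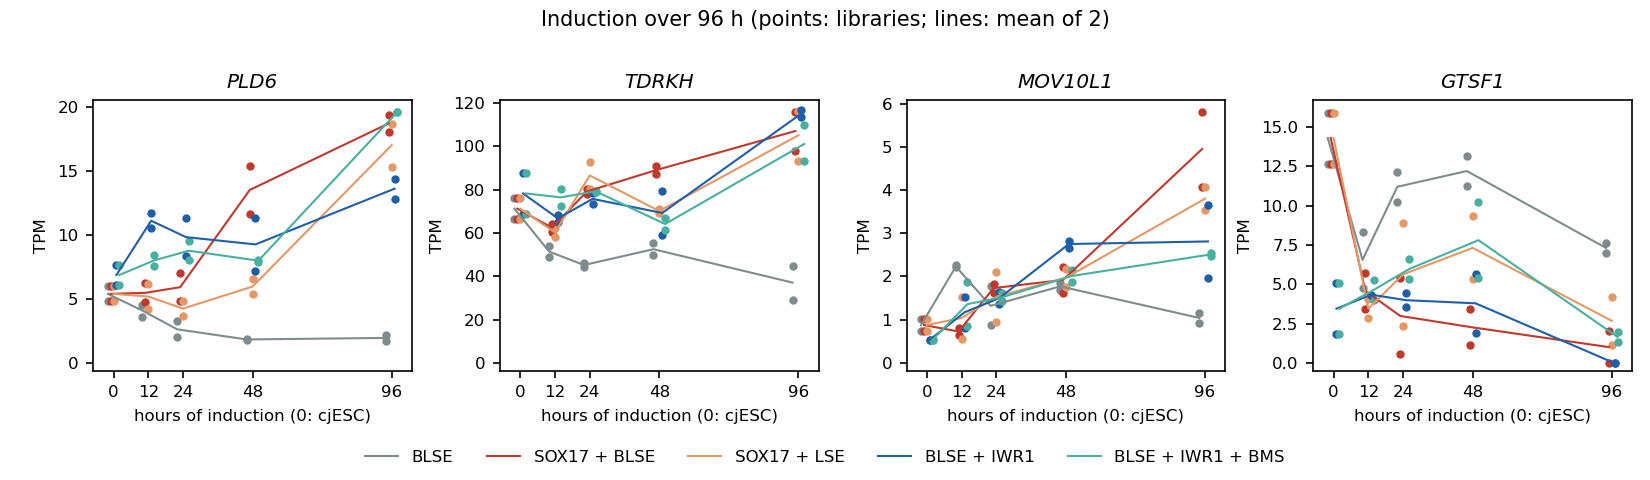
TPM of PLD6, TDRKH, MOV10L1 and GTSF1 over 96 h in the 5 cultures, with points for libraries, lines through the means, and the cjESCs of each line at 0 h. The pre-treatment that came before the cultures with IWR1 is not drawn. PLD6 and TDRKH decline in BLSE and are high at 96 h in the other 4 cultures, and GTSF1 is lowest at 96 h in the sorted cells.

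No member was called for BMS493, for the pre-treatment or between both sets of cjESCs. BLSE + IWR1 + BMS against BLSE + IWR1 at 96 h gave 0 members called in limma and 3 at an unadjusted p under 0.05, where 0.732% of all genes were called in either direction. Pre-treatment with IM12 and activin A gave 0 members called and 0 at an unadjusted p under 0.05 (background 0.304%). cjESCs in PESFA and DK20FA gave 0 called and 2 at an unadjusted p under 0.05, MAEL and GTSF1 (background 16.8%). None of these counts shows that the levels were alike, since the 95% interval of the GTSF1 difference between PESFA and DK20FA ran from -3.15 to -0.58.

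The changes from cjESCs to 96 h were also compared between BLSE + IWR1 and SOX17 + BLSE, by the difference of both changes over their 8 libraries. Transgenes, medium, pre-treatment, IWR1, SOX17 and dexamethasone differ between these routes and cannot be told apart in it. No member was called, and 1, PLD6, had an unadjusted p under 0.05 (0.0371), where 11.4% of all genes tested were called in either direction. The difference was -0.73 for PLD6, with a 95% interval from -1.40 to -0.05, and -0.02 for TDRKH, with an interval from -0.45 to 0.41. For GTSF1 the interval from -0.75 to 2.88 was wide.

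Of 25 other genes of the pathway, 18 are in the table, and 13 passed the filter. FKBP6 and TEX15 were listed at 0 in all 8 libraries of day 6 and the xrOvaries. Between day 6 and day 70, 6 of the 13 rose, DDX4, TDRD1, TDRD7, RNF17, SPOCD1 and MORC1 (background 7.46%), and 1 fell, DNMT3L (background 23.8%). Their median difference was 0.64, beside -0.20 over all genes tested. Between day 6 and day 20, 2 were higher (TDRD7 and STK31, background 6.56%) and 2 lower (TDRD6 and DNMT3L, background 13.8%), STK31 and TDRD6 being named after their values were seen. As with the members, genes low at day 6, such as DDX4, RNF17 and MORC1, can pass the filter through their late libraries. The counts and the median of this list are therefore descriptions and not support for a rise.

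**Figure D5:**
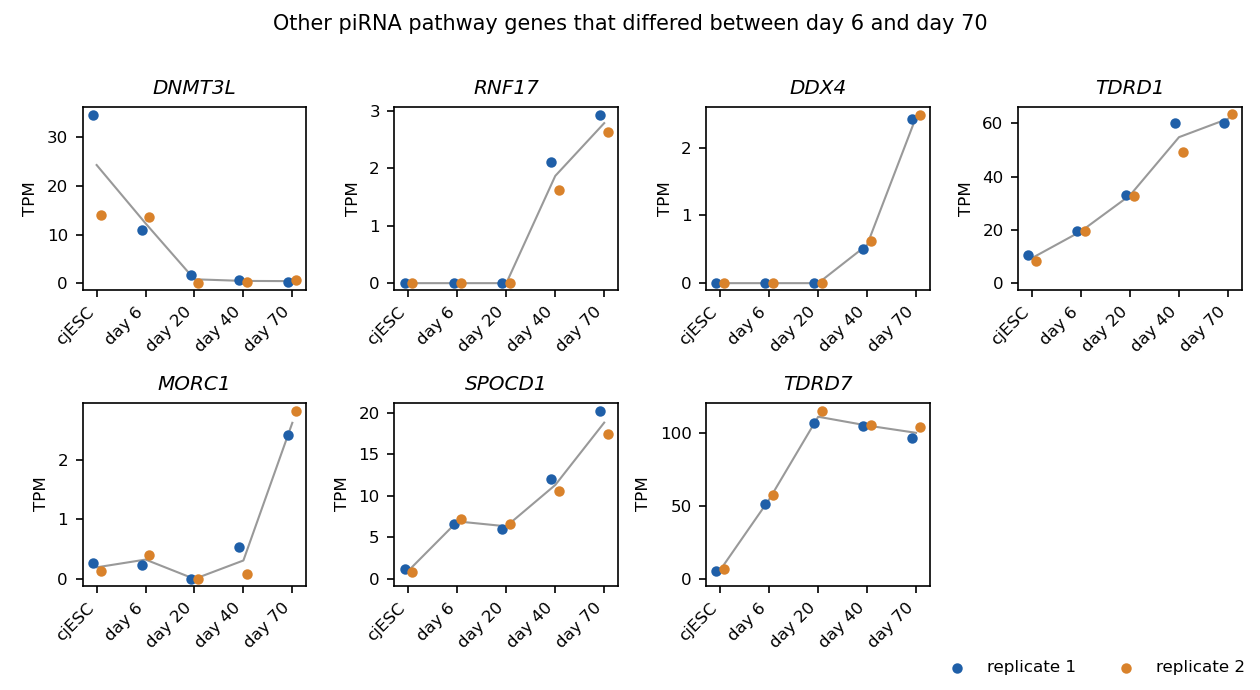
TPM in each library of the 7 other pathway genes that were called between day 70 and day 6, drawn as for the members, with a separate vertical scale per gene. RNF17 and DDX4 are at 0 up to day 20, TDRD7 reaches its plateau at day 20, and DNMT3L is near 0 from day 20 on.

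Among these, DDX4, the germ cell RNA helicase of nuage, was listed at 0 at days 6 and 20, at 0.51 and 0.62 TPM at day 40 and at 2.42 and 2.48 TPM at day 70. RNF17, a Tudor domain protein of germ cell granules, was at 0 up to day 20, at 2.12 and 1.62 TPM at day 40 and at 2.93 and 2.64 TPM at day 70. DAZL, an RNA-binding protein of later germ cells, was at 1.64 and 1.81 TPM at day 40 and at 51.88 and 53.90 TPM at day 70. The study singled out DAZL in these same libraries, so its direction is not independent of that choice.

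TDRD7, a Tudor and LOTUS domain protein of nuage, stood at 51.54 and 57.53 TPM at day 6, 106.71 and 115.27 TPM at day 20 and 96.51 and 103.76 TPM at day 70. TDRD1, a Tudor scaffold that binds PIWI proteins, went from 19.45 and 19.57 TPM at day 6 to 59.98 and 63.48 TPM at day 70, a difference of 1.61 ± 0.28 (SE, adjusted p = 9.25e-06). SPOCD1, which links nuclear piRNAs to DNA methylation, went from 6.65 and 7.18 TPM to 20.25 and 17.40 TPM. MORC1, a factor of transposon silencing, went from 0.24 and 0.41 TPM to 2.42 and 2.82 TPM. The pairs of days 6 and 70 did not overlap for any of these genes. They were named because they were called between these days, so this is a description and no separate support.

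DNMT3L, a cofactor of de novo DNA methylation, fell instead, from 10.87 and 13.70 TPM at day 6 to 1.59 and 0 TPM at day 20 and 0.18 and 0.65 TPM at day 70. The difference was -3.24 ± 0.38 (SE, adjusted p = 7.05e-09) at day 70. Of 7 relatives outside the pathway, such as the helicase MOV10 and the Argonaute proteins of the microRNA pathway, 1 was lower at day 70 than at day 6, AGO4, with 12.56 and 9.58 TPM at day 6 and 2.0 and 3.39 TPM at day 70, and none was higher, where 23.8% of the genes tested were lower and 7.46% higher. MOV10, the somatic relative of MOV10L1, was at 12.06 and 11.08 TPM at day 6 and at 8.92 and 9.73 TPM at day 70, a difference of -0.28 with an adjusted p of 0.416.

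Across the 27 condition means, which share libraries of 1 cell line, the members did not all run together. PIWIL2 correlated with TDRD12 at a Pearson r of 0.952 and with MOV10L1 at 0.893, whereas GTSF1 correlated with PLD6 at -0.603 and with TDRKH at -0.124. Against the mean profile of the 8 members, r was between 0.817 and 0.972 for PIWIL2, TDRD12, MOV10L1, MAEL, ASZ1 and TDRKH, 0.328 for GTSF1 and 0.288 for PLD6. Each member is part of that profile, which raises its r in advance. The 5 other genes most like the mean profile were SEPTIN14 (r = 0.963), TLX1 (0.951), SLCO1B1 (0.950), MAGEB18 (0.947) and CBLN4 (0.946). All 5 were low before aggregation, and TLX1, the highest of them, was at 0 at day 6 and at 14.18 and 16.12 TPM at day 70. Over the 14 conditions of the line without transgenes only SEPTIN14 of these 5 stayed among the first 5.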

How the data were processed

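RNA-seq was analysed from 54 libraries, 2 per condition, of fixed numbers of sorted or collected cells. The authors aligned single-end, strand-specific poly(A) reads to the marmoset genome with STAR, estimated abundances with RSEM, and deposited TPM for genes shared by marmoset and human, which sum to between 790300 and 839203 per library. Depth cannot be recovered from TPM. Differences were tested with limma 3.58.1 in R 4.3.3 on log2(TPM + 1) for 11197 genes (those that reached 1.5 on this scale in any library), with 1 mean per condition over all libraries (27 residual degrees of freedom), an intensity trend and Benjamini-Hochberg adjustment over these genes. Tests were two-sided. The smallest p of an exact permutation test between 2 pairs of libraries is 0.33. The labels do not say how same-numbered replicates relate, and the study's methods call the duplicates biological. The steps were tested on simulated data. Members and lists were chosen with earlier results of these data known. Named were the members, genes of the other 2 lists called in a reported comparison (up to 8, by the difference of day 70 against day 6), and the 5 genes most like the members' mean profile. The marker lists were of PGCs, pluripotent cells, later germ cells, gonadal somatic cells, stroma, blood and endothelium. From day 6 to the xrOvaries, blood summed to between 121 and 526 TPM, nearly all CD14, with PTPRC at or below 0.48 TPM, and endothelium to between 1.33 and 21.0 TPM, stroma to between 18.4 and 76.0 TPM and later germ cell markers to between 7.59 and 111 TPM. The gene IDs of all 10 members carry the same symbols in the RefSeq gene table, whose assembly differs from that of the alignment, so no coordinates are given. The alternatives were another pseudocount, no filter, median-ratio scaling, a fit of only the compared libraries, a replicate block, no trend, other thresholds and leaving out each library.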

Additional observations from a re-analysis of the deposited data

Results flagged for a closer look

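The change from cjESC in DK20FA to 96 h differed between SOX17 + BLSE and BLSE, by a direct limma test of the difference over all libraries, for 6 members. Both changes share the cjESC libraries, so this is the comparison of these cultures given above and no further support. On the log2(TPM + 1) scale the difference was 2.74 for PLD6, 1.53 for TDRKH, 1.53 for MOV10L1, 1.44 for MAEL, 0.80 for ASZ1 and -2.25 for GTSF1. The SOX17 + BLSE cells were sorted and the BLSE cells were not, and SOX17 and dexamethasone cannot be told apart. At 48 h, with neither sorted by the reporter, the difference was 2.35 for PLD6 and 0.75 for TDRKH. Between SOX17 + LSE and SOX17 + BLSE at 48 h the difference was -1.05 for PLD6. This call, and those of ASZ1 and GTSF1 at 96 h, were lost when single libraries were left out, as given above.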

How the results depend on the processing

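With a fit of only the compared libraries, which leaves few degrees of freedom, the members called higher numbered 0 at day 20 and 3 at day 40 against day 6, 0 at day 40 against day 20, 0 at day 70 against day 40, 1 in SOX17 + BLSE, 0 in SOX17 + LSE and 0 in BLSE + IWR1 at 96 h, and 1 in SOX17 + BLSE against BLSE at 96 h, and those called lower numbered 0 in each comparison that had any. With 4-fold and a mean log2 value above 1.5 also required, those higher numbered 1 at day 20, 3 at day 40 and 5 at day 70 against day 6 (without PIWIL2 and TDRKH), 0 at day 40 against day 20, 2 at day 70 against day 40 (without PIWIL2), 1 at day 6 against cjESC, 0 in each sorted 96 h culture and 1 in SOX17 + BLSE against BLSE, and those lower 0 at days 20, 40 and 70, in BLSE and in BLSE + IWR1. At an adjusted p under 0.05, 5 members were higher at day 40 than at day 20, beside 3 without the filter, 3 with median-ratio scaling and 2 without the trend. A pseudocount of 0.1 left 5 members higher at day 40 than at day 6 (without GTSF1 and PIWIL2, adjusted p = 0.0228 and 0.0538), 1 member higher at day 70 than at day 40 (ASZ1) and 0 lower in SOX17 + LSE. Without the filter 0 were lower in SOX17 + LSE and in BLSE + IWR1, and without the trend 0 were lower in BLSE + IWR1. Median-ratio scaling left 2 higher in BLSE + IWR1. Leaving out 1 library gave 4 to 6 higher at day 40 and 0 to 1 lower at day 70 against day 6, 1 to 2 higher at day 40 against day 20, 3 to 4 higher in SOX17 + BLSE, 3 to 5 in SOX17 + LSE, 1 to 3 in BLSE + IWR1, and 0 to 1 lower in each of these 3 and in SOX17 + BLSE against BLSE. The cause of these losses was not tested. Over the 14 conditions of the line without transgenes, 1 of the 5 genes most like the members stayed. No called difference turned its direction under any alternative run. Same-numbered replicates did not deviate together (correlations from -0.077 to 0.164), and a replicate block gave the same calls for all 192 differences of members, with 7 higher and 1 lower at day 70 against day 6. Depth is unknown, so the counting error of low values such as those of TDRD5 and TDRD9 cannot be given.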
